A study of Mus musculus with 36 samples.

Results

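The genes described here mark T cells and cytotoxic lymphocytes: Cd3e, Cd3g, Cd4, Cd5, Cd8a, Foxp3, Gzma, Gzmb, Prf1 and Nkg7. These 10 were picked by symbol, with no measured value in the rule, out of 55414 genes counted in 36 libraries of mouse skin RNA. All 10 passed the filter on low counts, which kept 20657 genes for testing. The series concerns healing of skin wounds and the removal of senescent cells with high p21. Wounds came from arms labelled PD and P, letters that the labels do not spell out. PD wounds were taken at day 2 (n = 5), day 4 (n = 6) and day 12 (n = 6) after injury, P wounds at day 2 (n = 5), day 4 (n = 5) and day 12 (n = 6), and unwounded skin gave the remaining 3 libraries. The labels give skin as the tissue of every group and state no age, sex, strain, allele or agent. They do not say that each library came from an animal of its own, so p-values measure the spread between these libraries. In whole tissue, fewer cells of a type and less RNA per cell cannot be told apart.

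T cells recognise antigen through a receptor that signals through the CD3 chains, with CD4 or CD8 as co-receptor. Regulatory T cells depend on the transcription factor Foxp3 and restrain other immune cells. Cytotoxic T cells and natural killer (NK) cells kill by releasing granules, in which perforin opens the way for granzymes. Mouse epidermis is home to dendritic epidermal T cells, a resident gamma-delta population that senses damaged keratinocytes and takes part in wound repair.

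Library totals ran from 11.807 to 58.376 M counts with a median of 30.397 M, and levels are given below as CPM, counts per 1 M library counts on composition-scaled (TMM) totals. T cell RNA was detected in all 36 libraries: the receptor genes Cd3d, Cd247, Trbc1 and Trbc2 had counts in every one. Some libraries stood apart from others of their group. In day 2 and day 4 wounds the summed level of 6 mast cell genes was 68.1 to 123 CPM in replicates 1 and 2 of every group, against 7.8 to 104 CPM in the other replicates and 33 to 43.8 CPM in unwounded skin. At day 12, P replicates 1 and 2 had 388 and 465 CPM summed over 4 pan-leukocyte genes, against 73.9 to 154 CPM in the other 4 P libraries. Within unwounded skin, replicate 2 had the lowest levels of Cd3e, Cd3g, Prf1 and Nkg7. Results that change without these libraries are given with and without them, except the day 12 myeloid and pan-leukocyte calls. The part of mast cell or leukocyte content in the results was not tested.

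The promoters of 3 members are printed because their RNAs moved apart in the wounds: Gzmb was higher, Prf1 and Cd3e lower. Each run covers 250 bases before to 50 after the RefSeq start (GRCm38.p6), 5′ to 3′ on the gene's strand, and each matched GRCm39 at exactly 1 place. The RefSeq start can differ from that of the GENCODE gene spans given below. The Gzmb window lies wholly upstream of its GENCODE span (chr14:56496295-56499717). Those places are chr14:56499742-56500041 (minus strand) for Gzmb, chr10:61133365-61133664 (plus) for Prf1 and chr9:44920860-44921159 (minus) for Cd3e. Capitals mark the RUNX core TGTGGT, the ETS core AGGAAG and the AP-1 motif TGANTCA, each read on both strands, with no overlap between matches in these windows.
Gzmb: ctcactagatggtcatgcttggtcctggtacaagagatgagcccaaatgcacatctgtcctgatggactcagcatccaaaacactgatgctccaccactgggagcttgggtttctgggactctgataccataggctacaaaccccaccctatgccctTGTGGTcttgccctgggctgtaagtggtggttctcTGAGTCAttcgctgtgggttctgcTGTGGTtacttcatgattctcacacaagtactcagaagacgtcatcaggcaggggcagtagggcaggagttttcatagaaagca
Prf1: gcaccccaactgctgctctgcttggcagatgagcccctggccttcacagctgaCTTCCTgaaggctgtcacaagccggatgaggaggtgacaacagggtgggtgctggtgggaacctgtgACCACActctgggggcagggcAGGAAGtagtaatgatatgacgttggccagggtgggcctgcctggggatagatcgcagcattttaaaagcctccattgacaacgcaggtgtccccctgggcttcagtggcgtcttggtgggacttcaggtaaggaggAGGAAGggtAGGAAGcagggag
Cd3e: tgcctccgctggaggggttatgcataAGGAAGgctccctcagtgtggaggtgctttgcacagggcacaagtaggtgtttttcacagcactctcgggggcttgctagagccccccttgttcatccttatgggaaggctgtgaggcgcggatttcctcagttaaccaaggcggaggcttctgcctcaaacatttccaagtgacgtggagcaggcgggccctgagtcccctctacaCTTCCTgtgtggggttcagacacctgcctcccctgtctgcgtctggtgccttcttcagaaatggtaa
Gzmb held 2 RUNX cores and 1 AP-1 motif, Prf1 held 1 RUNX core and 4 ETS cores, and Cd3e held 2 ETS cores. Among the 9 members with a window in the RefSeq table, 4 held the RUNX core (Gzma, Gzmb, Nkg7, Prf1), against 16.8% of all 32851 windows of that length. The ETS core lay in 5 of the 9 (Cd3e, Cd5, Foxp3, Nkg7, Prf1), against 35.4% of windows. The AP-1 motif lay in Gzmb alone, against 7.8% of windows. A match describes the letters in the window and not a bound site.

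Each wound group was set against unwounded skin to ask how these genes stood during healing. Granzyme B was higher in all 6 wound groups, perforin was lower in all 6, and the CD3 genes were lower in most. Cd5 was higher in both arms at days 4 and 12, and Cd4 in both arms at day 12. At day 4 Cd4 was called higher in PD wounds only, and the outcome there changed with the setting in both arms. A gene is called changed at a Benjamini-Hochberg adjusted p under 0.05 in edgeR's quasi-likelihood test over all tested genes. At day 2, 2 members were called higher and 3 lower in PD wounds, where 39.4% of all genes were called (21% higher, 18.4% lower), and 1 was higher and 4 lower in P wounds, where 41.3% were called (22.3% higher, 19% lower). At day 4, 3 were higher and 4 lower in PD wounds, with 47.1% of all genes called (25.4% higher, 21.8% lower), and 2 were higher and 4 lower in P wounds, with 43.3% called (23.6% higher, 19.7% lower). At day 12, 3 were higher and 3 lower in PD wounds, with 44.9% called (24.2% higher, 20.7% lower), and 4 were higher and 2 lower in P wounds, with 43.7% called (23.7% higher, 20% lower). These shares are near or somewhat above those of all genes, so the counts by themselves are no result about these 10 genes. The median log2 change of the 10 members was −0.12 in PD and 0.45 in P wounds at day 2, −0.75 in PD and −0.18 in P at day 4, and 0.97 in PD and 1.25 in P at day 12, while the median of all genes lay between 0.02 and 0.10. Without a composition factor, 71.7% of all day 12 calls in PD wounds and 73% in P wounds were increases, against 53.9% and 54.2% with it. All 6 comparisons share the 3 unwounded libraries, so they are not independent of each other.

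**Figure D1:**
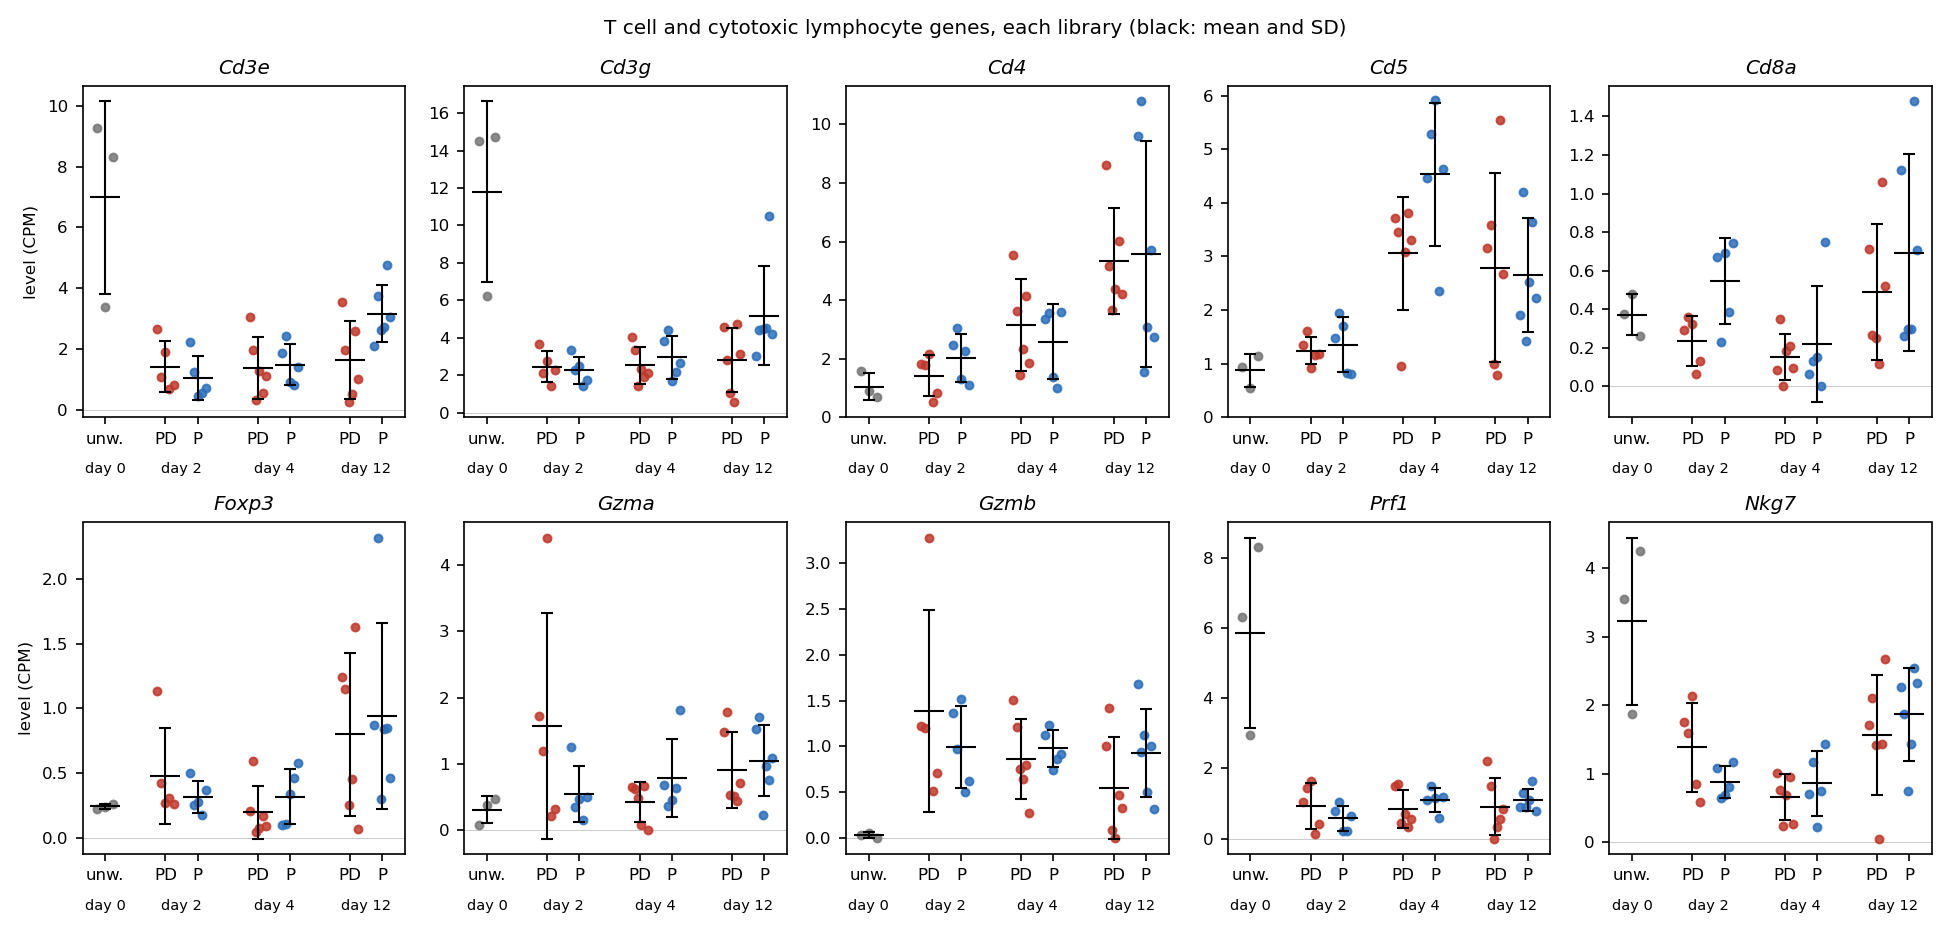
Level of each of the 10 genes (CPM, linear axes) in every library, by day and arm, with 1 point per library and black lines at the group mean and SD. Prf1 lay lower in every wound library than in any unwounded one, while Gzmb lay between 0 and 3.28 CPM in wounds, against 0 to 0.0598 CPM in unwounded skin.

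Cd3e encodes the epsilon chain of the CD3 complex, through which the T cell receptor signals (ENSMUSG00000032093, chr9:44910037-44920925, minus strand, GRCm39), and overlaps the predicted genes Gm48719 on the opposite strand and Gm48720 on its own. In PD wounds it stood at 2.66, 1.07, 1.9, 0.672 and 0.811 CPM at day 2, at 0.32 to 3.06 CPM (median 1.18) at day 4 and at 0.251 to 3.55 CPM (median 1.48) at day 12. In P wounds it stood at 2.23, 1.25, 0.462, 0.565 and 0.713 CPM at day 2, at 1.87, 2.44, 0.897, 0.808 and 1.41 CPM at day 4 and at 2.09 to 4.75 CPM (median 2.88) at day 12. Unwounded skin had 9.27, 3.37 and 8.33 CPM. Every day 2 and day 4 wound library was below every unwounded one, whereas at day 12 both arms overlapped unwounded skin. The level was 4.86-fold lower in PD wounds at day 2 (edgeR adjusted p = 0.00426, log2 −2.28 ± 0.63 SE) and 6.56-fold lower in P wounds (adjusted p = 0.00088). At day 4 it was 5.03-fold lower in PD wounds (adjusted p = 0.00196) and 4.64-fold lower in P wounds (adjusted p = 0.00516). At day 12 it was 4.21-fold lower in PD wounds (adjusted p = 0.00553), and in P wounds the log2 difference of −1.14 ± 0.59 SE was not called (adjusted p = 0.119). That P day 12 difference was called with limma-voom sample weights (adjusted p = 6.16e-05) and in a fit of only those libraries (adjusted p = 0.0258), and the PD day 12 call was lost with 2 surrogate variables (adjusted p = 0.0606). Mast cell sums on days 2 and 4 were high in replicates 1 and 2 of every wound group, and also in PD day 2 replicate 3 (104 CPM). Without replicates 1 and 2 of every wound group, but with that library, Cd3e was 11.7-fold lower in P wounds at day 2 and 8.53-fold lower in PD wounds at day 4. With limma-voom it was 10.8-fold lower in P wounds at day 2, 7.66-fold in PD at day 4 and 8.69-fold in PD at day 12.

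Cd3g, which encodes the gamma chain of the same complex (chr9:44880870-44891735, minus strand), was also lower in the wounds. It averaged 2.45 ± 0.836 CPM in PD and 2.26 ± 0.731 CPM in P wounds at day 2, 2.52 ± 0.974 in PD and 2.96 ± 1.13 in P at day 4, and 2.81 ± 1.73 in PD and 5.19 ± 2.67 in P at day 12, against 11.8 ± 4.82 CPM in unwounded skin (SD). Wounds lay wholly below unwounded skin in every group except P day 12, where replicate 5 stood at 10.5 CPM and the other 5 at 3.05 to 4.5 CPM. Cd3g was called lower in all 6 groups, by 4.79-fold in PD and 5.19-fold in P wounds at day 2, 4.65-fold in PD and 3.96-fold in P at day 4, and 4.16-fold in PD and 2.26-fold in P at day 12. The edgeR adjusted p was 0.000145 to 0.00104 up to day 4, 0.000444 in PD wounds at day 12 and 0.0318 in P wounds at day 12. The P day 12 call is fragile: it was lost without P day 12 replicate 1, 2, 3, 4 or 6 (adjusted p 0.0512 to 0.0619), without unwounded replicate 1 (0.156) or 3 (0.162), without a composition factor (0.107), without a filter on low counts (0.0514) and with 2 surrogate variables (0.0873).

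Cd4, the co-receptor of helper and regulatory T cells, is also carried by some myeloid cells and was higher in the later wounds (ENSMUSG00000023274, chr6:124841655-124874758, minus strand). In PD wounds it stood at 1.80, 1.79, 2.17, 0.519 and 0.811 CPM at day 2, at 1.44 to 5.55 CPM (median 2.98) at day 4 and at 3.65 to 8.61 CPM (median 4.77) at day 12. In P wounds it stood at 2.46, 3.05, 1.29, 2.26 and 1.09 CPM at day 2, at 3.36, 3.55, 1.38, 0.981 and 3.59 CPM at day 4 and at 1.53 to 10.8 CPM (median 4.4) at day 12. Unwounded skin had 1.57, 0.878 and 0.681 CPM. All 6 PD day 12 libraries were above all unwounded ones, while the P day 12 group reached just below the highest unwounded library. At day 12 Cd4 was 5.09-fold higher in PD wounds (log2 2.35 ± 0.60 SE, edgeR adjusted p = 0.00208) and 5.33-fold higher in P wounds (adjusted p = 0.00164). P day 12 replicates 1 and 2, the libraries with the high pan-leukocyte sums, held the highest P values, 9.62 and 10.8 CPM, and without them Cd4 was 3.12-fold higher in P wounds (adjusted p = 0.0161). With 2 surrogate variables the increase in PD wounds was 5.91-fold at day 4 and 11-fold at day 12, and with limma-voom that in P wounds at day 12 was 2.54-fold. At day 4 the 3.02-fold increase in PD wounds was called (adjusted p = 0.023) and the log2 difference of 1.31 in P wounds was not (adjusted p = 0.0674). The PD day 4 call was lost without PD day 4 replicate 1 (adjusted p = 0.052) or without unwounded replicate 2 (0.0895) or 3 (0.0955). It was also lost under 1 of 10 alternatives (0.0666). The P day 4 difference was called under 4 of 10 alternatives (lowest adjusted p = 0.0012). With 1 library left out it stayed uncalled in 6 of 8 fits (lowest adjusted p = 0.0334). Between the arms at day 4, Cd4 was not called (log2 0.29 in PD against P wounds). At day 2 neither arm was called, with log2 differences of 0.44 in PD and 0.96 in P wounds.

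Cd8a encodes a chain of the co-receptor of cytotoxic T cells and was the lowest-counted member, with 0 to 47 counts per library. It averaged 0.233 ± 0.13 CPM in PD and 0.545 ± 0.224 CPM in P wounds at day 2, 0.151 ± 0.121 in PD and 0.219 ± 0.302 in P at day 4, and 0.487 ± 0.354 in PD and 0.693 ± 0.51 in P at day 12, against 0.372 ± 0.108 CPM in unwounded skin (SD). No wound group was called different from unwounded skin (adjusted p 0.199 to 0.71). Log2 differences ran from −1.24 in PD wounds at day 4 to 0.87 in P wounds at day 12. The P day 4 value of −0.71 became −1.98 without P day 4 replicate 5 (adjusted p = 0.0515) and was called with limma-voom (−1.45, adjusted p = 0.0269). At these counts the 95% interval for P wounds at day 12 ran from −0.69 to 2.44, so the data allow differences of 2-fold and more.

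Cd5, a surface glycoprotein of T cells and of a B cell subset that dampens receptor signalling, was higher in wounds from day 4 on (ENSMUSG00000024669, chr19:10694480-10716366, minus strand). In PD wounds it stood at 1.35, 1.60, 0.922, 1.16 and 1.17 CPM at day 2, at 0.959 to 3.8 CPM (median 3.38) at day 4 and at 0.788 to 5.54 CPM (median 2.92) at day 12. In P wounds it stood at 1.47, 1.94, 1.71, 0.833 and 0.806 CPM at day 2, at 4.46, 5.28, 5.91, 2.36 and 4.63 CPM at day 4 and at 1.42 to 4.2 CPM (median 2.37) at day 12. Unwounded skin had 0.935, 0.539 and 1.15 CPM. Both P groups from day 4 on lay wholly above unwounded skin, and in PD wounds 5 of 6 day 4 libraries did. At day 4 Cd5 was 3.54-fold higher in PD wounds (log2 1.82 ± 0.50 SE, edgeR adjusted p = 0.00347) and 5.26-fold higher in P wounds (adjusted p = 0.000452). At day 12 it was 3.25-fold higher in PD wounds (adjusted p = 0.00647) and 3.08-fold higher in P wounds (adjusted p = 0.00874). Unwounded replicate 2, the lowest of the 3, counted here: without it the day 12 calls were lost in PD (adjusted p = 0.0502) and P wounds (0.063), and a fit of only the PD day 12 and unwounded libraries also lost the call (0.0519).

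Foxp3, the defining transcription factor of regulatory T cells, overlaps Ccdc22, Gm36995 and Ppp1r3f on the opposite strand and Flicr on its own strand (chrX:7439883-7461484, plus strand). The strand setting of the counting is not given in the sources used here, so reads of these genes may be shared. Foxp3 averaged 0.478 ± 0.371 CPM in PD and 0.316 ± 0.123 CPM in P wounds at day 2, 0.195 ± 0.202 in PD and 0.315 ± 0.213 in P at day 4, and 0.797 ± 0.627 in PD and 0.941 ± 0.719 in P at day 12, against 0.242 ± 0.019 CPM in unwounded skin (SD). It was called in P day 12 wounds, 3.87-fold higher (log2 1.95 ± 0.80 SE, edgeR adjusted p = 0.0477), with all 6 libraries above the unwounded ones. PD day 12 wounds had a log2 difference of 1.72 that was not called (adjusted p = 0.0774) and ranged from 0.0651 to 1.63 CPM. The P day 12 call was lost without P day 12 replicate 2 (2.32 CPM in that library, adjusted p = 0.131 without it) or replicate 1, 4 or 5, without any 1 unwounded library (0.0895 to 0.119), without the filter on low counts (0.0684), without both P day 12 replicates 1 and 2 (0.186) and without replicates 1 and 2 of every wound group (0.116). The PD day 12 difference passed without a composition factor (0.0473), with DESeq2 (0.0443) and with 2 surrogate variables (0.00939).

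Gzmb encodes granzyme B, the protease that starts apoptosis in a target cell, and was the member with the largest increase over unwounded skin in each of the 6 comparisons (ENSMUSG00000015437, chr14:56496295-56499717, minus strand). In PD wounds it stood at 1.22, 1.20, 3.28, 0.519 and 0.713 CPM at day 2, at 0.275 to 1.51 CPM (median 0.776) at day 4 and at 0 to 1.42 CPM (median 0.395) at day 12. In P wounds it stood at 1.36, 0.972, 1.52, 0.506 and 0.62 CPM at day 2, at 1.13, 1.23, 0.748, 0.865 and 0.92 CPM at day 4 and at 0.318 to 1.68 CPM (median 0.971) at day 12. Unwounded skin had 0.0374, 0.0598 and 0 CPM, which are 1, 3 and 0 counts. Except for PD day 12, where 1 library had 0 counts, every wound library was above every unwounded one. The log2 difference was 5.01 ± 0.99 SE in PD and 4.52 ± 0.99 in P wounds at day 2, 4.35 ± 0.98 in PD and 4.51 ± 0.99 in P at day 4, and 3.71 ± 0.98 in PD and 4.43 ± 0.98 in P at day 12, with edgeR adjusted p from 0.000178 to 0.00289. The folds rest on 4 counts in unwounded skin, so their size is poorly fixed. Without unwounded replicate 2 they were 23.3-fold to 56.8-fold over the 6 comparisons, against 13.1-fold to 32.2-fold with it, and without PD day 2 replicate 3 the 32.2-fold difference in PD wounds at day 2 was 21.2-fold. At day 12 the 21.6-fold difference in P wounds was 12.3-fold with limma-voom sample weights, and the 13.1-fold difference in PD wounds was 4.39-fold with those weights and 5.42-fold, no longer called (adjusted p = 0.0547), without replicates 1 and 2 of every wound group.

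Gzma encodes granzyme A, a protease of the same granules (chr13:113230355-113237524, minus strand). At day 2 it stood at 1.73, 1.20, 4.42, 0.214 and 0.324 CPM in PD wounds, at 1.25, 0.347, 0.462, 0.149 and 0.496 CPM in P wounds and at 0.0748, 0.379 and 0.472 CPM in unwounded skin. The PD values ran from 0.214 to 4.42 CPM, and both arms overlapped unwounded skin. The 5.12-fold increase in PD wounds was called (log2 2.36 ± 0.90 SE, edgeR adjusted p = 0.0374) and the log2 difference of 0.83 in P wounds was not (adjusted p = 0.474). The call rests on few libraries: without PD day 2 replicate 3 the fold was 2.83 (adjusted p = 0.17), and it was also lost without PD day 2 replicate 1 (0.0522), without unwounded replicate 1 (0.144), 2 (0.0776) or 3 (0.0525), in a fit of only those libraries (0.0886) and with no filter on low counts (0.0575). At day 4 and day 12 no group was called in the main edgeR fit, with log2 differences of 0.48 in PD and 1.36 in P wounds at day 4 and of 1.57 in PD and 1.76 in P at day 12. Some alternatives did call Gzma higher: 2 of 10 at P day 4 (lowest adjusted p = 0.0052), 3 of 11 at P day 12 (0.00173) and 2 of 10 at PD day 12 (0.00831).

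Prf1 encodes perforin, the pore-forming protein that lets granzymes into a target cell, and it was lower in every wound group (ENSMUSG00000037202, chr10:61133546-61140461, plus strand). In PD wounds it stood at 1.04, 1.43, 1.65, 0.122 and 0.422 CPM at day 2, at 0.334 to 1.56 CPM (median 0.623) at day 4 and at 0 to 2.22 CPM (median 0.705) at day 12. In P wounds it stood at 0.778, 1.04, 0.231, 0.208 and 0.651 CPM at day 2, at 1.10, 1.5, 1.16, 0.577 and 1.18 CPM at day 4 and at 0.776 to 1.63 CPM (median 0.998) at day 12. Unwounded skin had 6.32, 2.95 and 8.33 CPM, above each of the 33 wound libraries. The level was 6.22-fold lower in PD wounds (edgeR adjusted p = 0.00351) and 9.79-fold lower in P wounds (adjusted p = 0.000462) at day 2. At day 4 it was 6.79-fold lower in PD wounds (adjusted p = 0.00126) and 5.24-fold lower in P wounds (adjusted p = 0.00694). At day 12 it was 6.33-fold lower in PD wounds (adjusted p = 0.00194) and 5.30-fold lower in P wounds (adjusted p = 0.00432). The 6 calls held under all alternatives run. Sizes moved by over 1.5 times without replicates 1 and 2 of every wound group, to 15.5-fold lower in P wounds at day 2, 11.3-fold in PD at day 4 and 13.2-fold in PD at day 12, with limma-voom, to 14.5-fold in PD at day 12, and with 2 surrogate variables, to 3.86-fold in PD at day 4.

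Nkg7, a granule membrane protein of NK cells and cytotoxic T cells, was lower at days 2 and 4 and closer to unwounded skin at day 12 (chr7:43086497-43087678, plus strand). It averaged 1.39 ± 0.647 CPM in PD and 0.881 ± 0.237 CPM in P wounds at day 2, 0.659 ± 0.333 in PD and 0.861 ± 0.468 in P at day 4, and 1.57 ± 0.878 in PD and 1.87 ± 0.676 in P at day 12, against 3.22 ± 1.22 CPM in unwounded skin (SD). It was called 3.62-fold lower in P wounds at day 2 (edgeR adjusted p = 0.00818), 4.75-fold lower in PD wounds at day 4 (adjusted p = 0.00109) and 3.68-fold lower in P wounds at day 4 (adjusted p = 0.00771), the 3 groups that lay wholly below unwounded skin. PD wounds at day 2 had a log2 difference of −1.20 (adjusted p = 0.0839, and 0.013 with limma-voom), and at day 12 it was −1.02 in PD and −0.78 in P wounds, with no call. Both P calls were lost without unwounded replicate 3, at adjusted p = 0.0527 on day 2 and 0.051 on day 4. Each was also lost under 1 of 10 alternatives, at adjusted p = 0.0677 on day 2 and 0.0544 on day 4. The day 12 differences were called under 1 of 10 alternatives in PD wounds (adjusted p = 0.00422) and 1 of 11 in P wounds (0.0185).

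**Figure D2:**
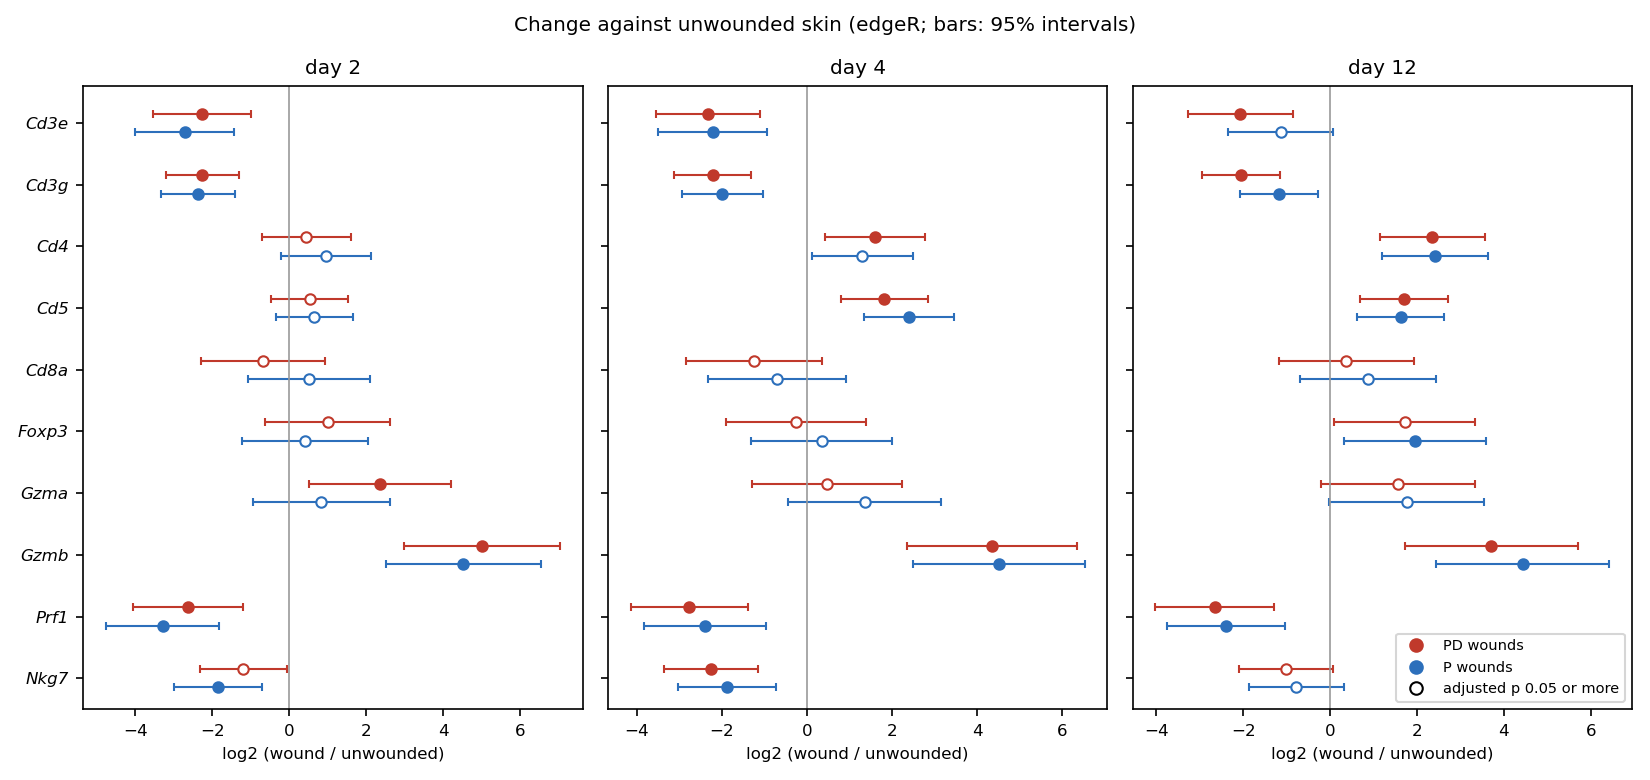
Log2 change of each of the 10 genes in wounds against unwounded skin, by day and arm, with 95% intervals of the fitted difference (filled: called at adjusted p under 0.05). Gzmb stands highest in all 6 comparisons (3.71 to 5.01) and Prf1 lowest in all 6 (−3.29 to −2.39).

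The counts of Gzmb and Prf1 in the same library show how the granule genes moved apart. For every 100 Prf1 counts, the median library had 169 Gzmb counts in PD and 175 in P wounds at day 2, 96.3 in PD and 82.5 in P at day 4, and 45.3 in PD (over the 5 libraries with Prf1 counts) and 67 in P at day 12, against 0.592 in unwounded skin. Likewise, for every 100 Cd3e counts the median library had 100 Cd4 counts in PD and 244 in P wounds at day 2, 184 in PD and 154 in P at day 4, and 340 in PD and 116 in P at day 12, against 16.9 in unwounded skin. The lowest wound library, at 58.6, was above the highest unwounded one, at 26. Ratios of different genes also carry their lengths, so a change in the ratio is read here and not its size. For every 100 counts of the pan-leukocyte gene Ptprc (CD45), Cd3e had a median of 0.931 counts in PD and 0.586 in P wounds at day 2, 0.83 in PD and 1.29 in P at day 4, and 8.78 in PD and 31.4 in P at day 12, against 53.1 in unwounded skin.

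Between days within an arm, few members were called, at shares near or below those of all genes. These counts by themselves are no result about these 10 genes. At an unadjusted edgeR p under 0.05 there were 1 member from day 2 to day 4 and 5 from day 4 to day 12 in P wounds. In PD wounds there were 4 and 3. Cd5 was 3.35-fold higher at day 4 than at day 2 in P wounds (log2 1.74 ± 0.41 SE, edgeR adjusted p = 0.00737), the 1 member called there, where 8.45% of all genes were called (5.76% higher, 2.7% lower). In PD wounds the same step gave a log2 difference of 1.30 that was not called (adjusted p = 0.0551), and no member was called, where 4.26% of genes were (2.67% higher, 1.59% lower). From day 4 to day 12, Foxp3 was 3.93-fold higher in PD wounds (adjusted p = 0.0167) and Nkg7 2.34-fold higher (adjusted p = 0.0451), the 2 members called, where 31.3% of all genes were called (15.7% higher, 15.6% lower). In P wounds, where 23.8% of genes were called at that step (11.2% higher, 12.6% lower), no member was: Foxp3 had a log2 difference of 1.60 (adjusted p = 0.0697) and Cd4 one of 1.11 (adjusted p = 0.0752). The Nkg7 call was lost in most other settings, among them limma-voom (adjusted p = 0.473) and the fit of only those libraries (0.134), and the Foxp3 call was lost with limma-voom (0.233) and without PD day 12 replicate 5 (0.0507). The Cd5 call was lost without replicates 1 and 2 of every wound group (0.0626).

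PD and P wounds were compared at each day to ask whether the arms differed in these genes. No member was called at day 2, 4 or 12, and 0% of all genes were called at each day in edgeR. At an unadjusted p under 0.05 there were 793, 2369 and 1022 genes at days 2, 4 and 12, DESeq2 called 24, 184 and 0, and limma-voom called 1, 2074 and 0. The ranges of all 10 members overlapped between the arms at every day. At day 2 Gzma was at a log2 of 1.52 in PD against P wounds (95% interval 0.10 to 2.95, edgeR adjusted p = 1), and at 0.67 without PD day 2 replicate 3. Cd8a was at −1.20 (−2.59 to 0.20). At day 4 Gzma was at −0.88 (−2.29 to 0.53) and Cd5 at −0.57 (−1.35 to 0.20). At day 12 Cd3e was lower by a log2 of −0.93 in PD wounds (−1.98 to 0.11), with levels of 0.251 to 3.55 CPM in PD and 2.09 to 4.75 CPM in P wounds. Cd3g was at −0.88 (−1.66 to −0.10, adjusted p = 0.884) and Gzmb at −0.72 (−1.84 to 0.40). These intervals are wide, and they allow differences of 2-fold or more in at least 1 direction for each gene named here. The change of the PD against P difference between days was also tested, and no member was called: for Gzma from day 2 to day 4 it was −2.40 (−4.40 to −0.40, adjusted p = 0.683), where 0% of genes were called in edgeR, 1472 had an unadjusted p under 0.05, and limma-voom alone called Gzma (−3.56, adjusted p = 0.0295). Without PD day 2 replicate 3 the Gzma value was −1.55. From day 4 to day 12 edgeR likewise called 0% of genes, and 623 had an unadjusted p under 0.05.

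**Figure D3:**
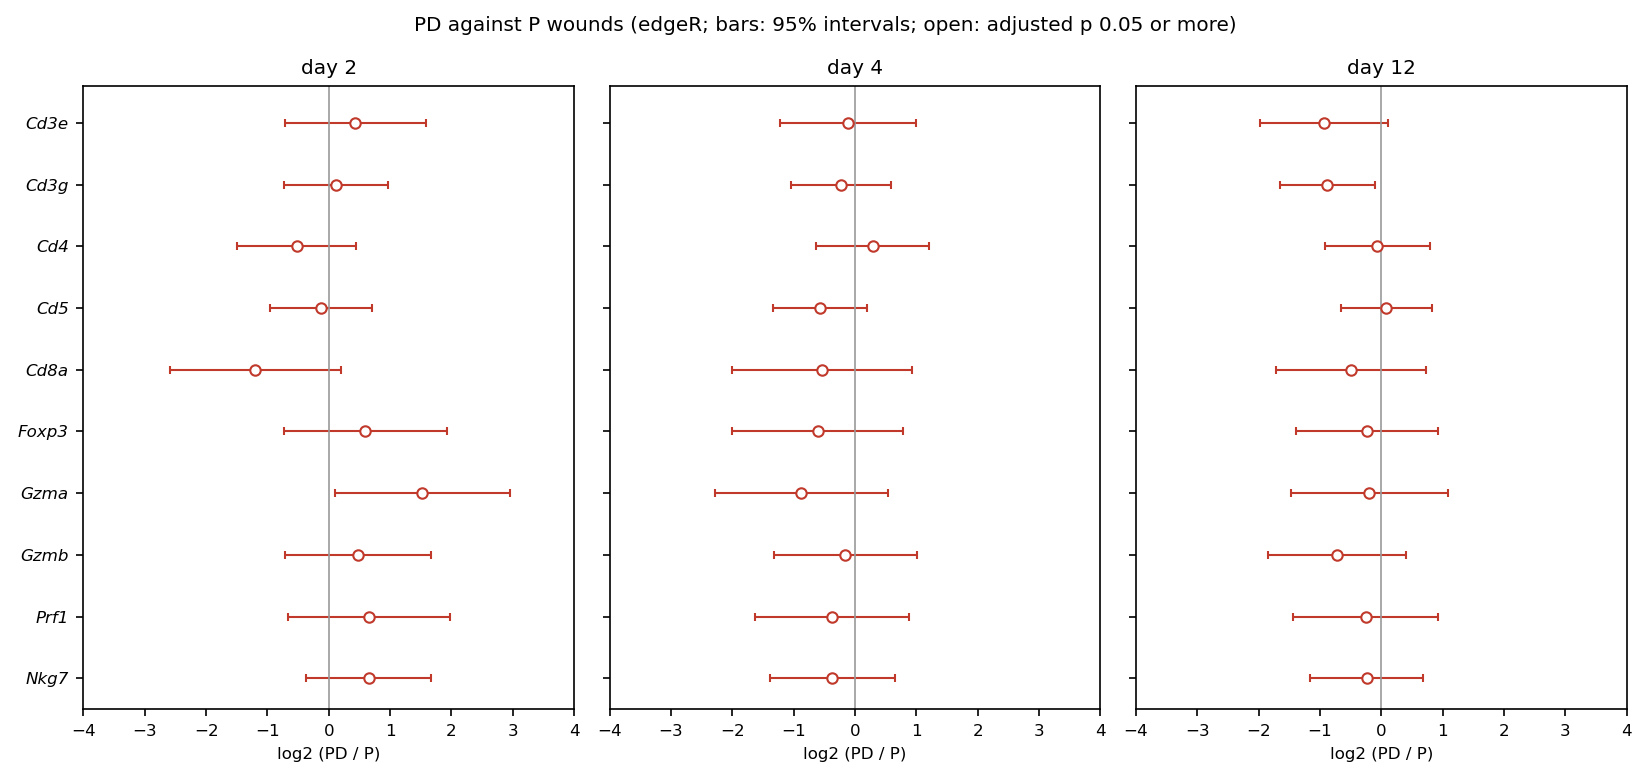
Log2 difference between PD and P wounds for each of the 10 genes at days 2, 4 and 12, with 95% intervals. No gene passed an adjusted p of 0.05, and the farthest point from 0 is Gzma at day 2 (1.52, or 0.67 without PD day 2 replicate 3).

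Other genes listed as markers of these cells were called in both directions. Which cells carried them was not tested: in unwounded skin Bcl11b averaged 91.6 CPM and Thy1 60.1 CPM, against 6.99 CPM for Cd3e. In the same 6 comparisons, 39.4% to 47.1% of all genes were called (21% to 25.4% higher, 18.4% to 21.8% lower). Beside these shares, the list counts given here and for the regulatory, cytotoxic and attraction genes are by themselves no result about these cells. Of 16 further genes of the T cell receptor complex and its signalling, 2 were higher and 4 lower in PD and 2 higher and 6 lower in P wounds at day 2, 2 higher and 4 lower in each arm at day 4, and 5 higher and 3 lower in PD and 5 higher and 2 lower in P wounds at day 12. Their median log2 change went with the day: −0.68 in PD and −0.5 in P at day 2, 0.02 in PD and −0.17 in P at day 4, and 0.29 in PD and 0.44 in P at day 12. Thy1, a surface protein of T cells that fibroblasts carry as well, was higher in all 6 groups, by 2.12-fold to 3.93-fold.

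Of 12 regulatory and memory T cell genes, 4 were higher and 2 lower in every comparison except PD day 12, where 3 were lower, and their median log2 change lay between −0.15 and 0.28. Ikzf2, which encodes the transcription factor Helios, averaged 4.43 to 7.35 CPM in the 6 wound groups, against 32.2 ± 6.65 CPM in unwounded skin (SD, n = 3), and was lower in all 6, by 4.38-fold to 7.25-fold. Foxp3 averaged 0.242 CPM in unwounded skin, and which cells carried Ikzf2 was not tested. Ctla4, an inhibitory receptor of regulatory and activated T cells, was lower in all 6, by 3.13-fold to 6.03-fold. Ccr7, a homing receptor of naive T cells and migrating dendritic cells, was higher in all 6, by 5.11-fold to 10.3-fold, and by up to 14.5-fold with 2 surrogate variables. Foxp3 and Ctla4, both used as regulatory T cell markers, thus differed in direction at P day 12.

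Of 18 further NK and cytotoxic genes, 15 passed the filter. They counted 2 higher and 2 lower in each arm at day 2, 3 higher and 4 lower in PD and 2 higher and 3 lower in P wounds at day 4, and 3 higher and 1 lower in PD and 4 higher and 0 lower in P wounds at day 12. The median log2 change was 0 in both arms at day 2, −0.43 in PD and −0.18 in P at day 4, and 0.16 in PD and 0.26 in P at day 12. Ccl5, a chemokine released by activated T and NK cells, was higher in all 6, by 3.41-fold to 7.75-fold. Its calls at P day 2, P day 4 and PD day 4 were lost without unwounded replicate 1 (adjusted p 0.0537 to 0.0702), and the P day 4 call also without unwounded replicate 2 (0.0508). Gzme, a granzyme of activated killer cells, had 0 counts in every unwounded and every day 2 library and was called higher in PD wounds at day 4 (43 counts in all) and in PD (89 counts) and P wounds (69 counts) at day 12. Each of the 3 Gzme calls was lost when any 1 unwounded library was left out (adjusted p 0.0516 to 0.139). The PD day 4 call was also lost without PD day 4 replicate 4 (0.0555) or 5 (0.162), and the P day 12 call without P day 12 replicate 5 (0.0513) and with limma-voom (0.0567). Xcl1, a chemokine of NK and CD8+ T cells, was lower in every group except P day 12, by 4.92-fold in PD and 10.8-fold in P wounds at day 2, 7.49-fold in PD and 4.94-fold in P at day 4 and 2.82-fold in PD at day 12. Without P day 2 replicate 1 the P day 2 value was 17.1-fold. The PD day 12 call of Xcl1 was lost without PD day 12 replicate 3, 4 or 5 or any 1 unwounded library (adjusted p 0.0508 to 0.172). Ctsw, a cathepsin of NK and cytotoxic T cells, was lower at day 2, by 3.08-fold in PD and 2.63-fold in P wounds, and at day 4, by 3.17-fold in PD and 2.75-fold in P, and was not called at day 12. Both P calls of Ctsw were lost without replicates 1 and 2 of every wound group (0.0529 and 0.0545). Of 14 genes for lymphocyte attraction and survival, 13 passed the filter. They counted 3 higher and 0 lower in PD and 2 higher and 0 lower in P wounds at day 2, 5 higher and 2 lower in PD and 5 higher and 1 lower in P at day 4, and 3 higher and 2 lower in PD and 4 higher and 1 lower in P at day 12. Cxcl10, which attracts activated T and NK cells, was among those higher in all 6, but 3 of its calls were fragile. The P day 4 call was lost without P day 4 replicate 1, 4 or 5 or any 1 unwounded library (adjusted p 0.0517 to 0.13). The P day 12 call was lost without P day 12 replicate 1 or any 1 unwounded library (0.0621 to 0.128). The PD day 4 call was lost without unwounded replicate 1 (0.0873).

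Gamma-delta T cell genes were lower. All 5 tested genes of that list (Trdc, Trgc1, Trgc2, Trgc4 and Trdv4) were called lower in every comparison except P day 12, where 3 were. Their median log2 change was −2.58 in PD and −2.71 in P wounds at day 2, −2.53 in PD and −2.41 in P at day 4, and −2.12 in PD and −1.28 in P at day 12. Trdc, the constant region of the delta receptor chain, was 3.71-fold lower in PD and 3.37-fold lower in P wounds at day 2, 4.95-fold in PD and 5.32-fold in P at day 4, and 4.35-fold in PD and 2.45-fold in P at day 12, the last lost without unwounded replicate 3 (adjusted p = 0.0653). The P day 12 call of Trgc1 was lost under 8 of 11 alternatives and when any 1 library other than P day 12 replicate 5 was left out (adjusted p 0.0527 to 0.235). For every 100 Cd3e counts there was a median of 264 Trdc counts in PD and 419 in P wounds at day 2, 200 in PD and 172 in P at day 4, and 241 in PD and 160 in P at day 12, against 207 in unwounded skin. Trdv4, a delta variable segment, was lower in all 6, by 5.82-fold to 12.9-fold, with 32.8-fold in PD at day 4 under limma-voom.

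Myeloid genes moved the other way. All 9 myeloid markers and all 4 pan-leukocyte markers were called higher in both arms at days 2 and 4, where 21% to 25.4% of all genes were. At day 12 the counts were 4 of 9 and 2 of 4 in PD wounds, where 24.2% of all genes were called higher. They were 6 of 9 and 3 of 4 in P wounds, where 23.7% were, with none lower in either arm. The summed myeloid level at P day 12 was 1890 and 1820 CPM in replicates 1 and 2, but 164 to 259 CPM in the other replicates. It was 259 to 1100 CPM at PD day 12 and 113 to 281 CPM in unwounded skin. Day 12 calls without P replicates 1 and 2 are not given here. Ptprc, the CD45 gene of all leukocytes, was 7.71-fold higher in PD and 11.9-fold higher in P wounds at day 2 and 9.11-fold in PD and 6.98-fold in P at day 4, and was not called at day 12 (1.12-fold in PD, 1.79-fold in P). At day 12 Ptprc ran from 6.58 to 35.9 CPM in PD (median 11.3) and from 4.98 to 70.4 CPM in P wounds (median 9.84). Unwounded skin had 11.5 to 17.5 CPM, so the median library of each arm was below every unwounded one. With 2 surrogate variables the 4 called increases of Ptprc were 13.9-fold to 23.4-fold. Cd4 and the granzymes can also come from non-T cells, and the part of the myeloid influx in their levels was not tested.

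**Figure D4:**
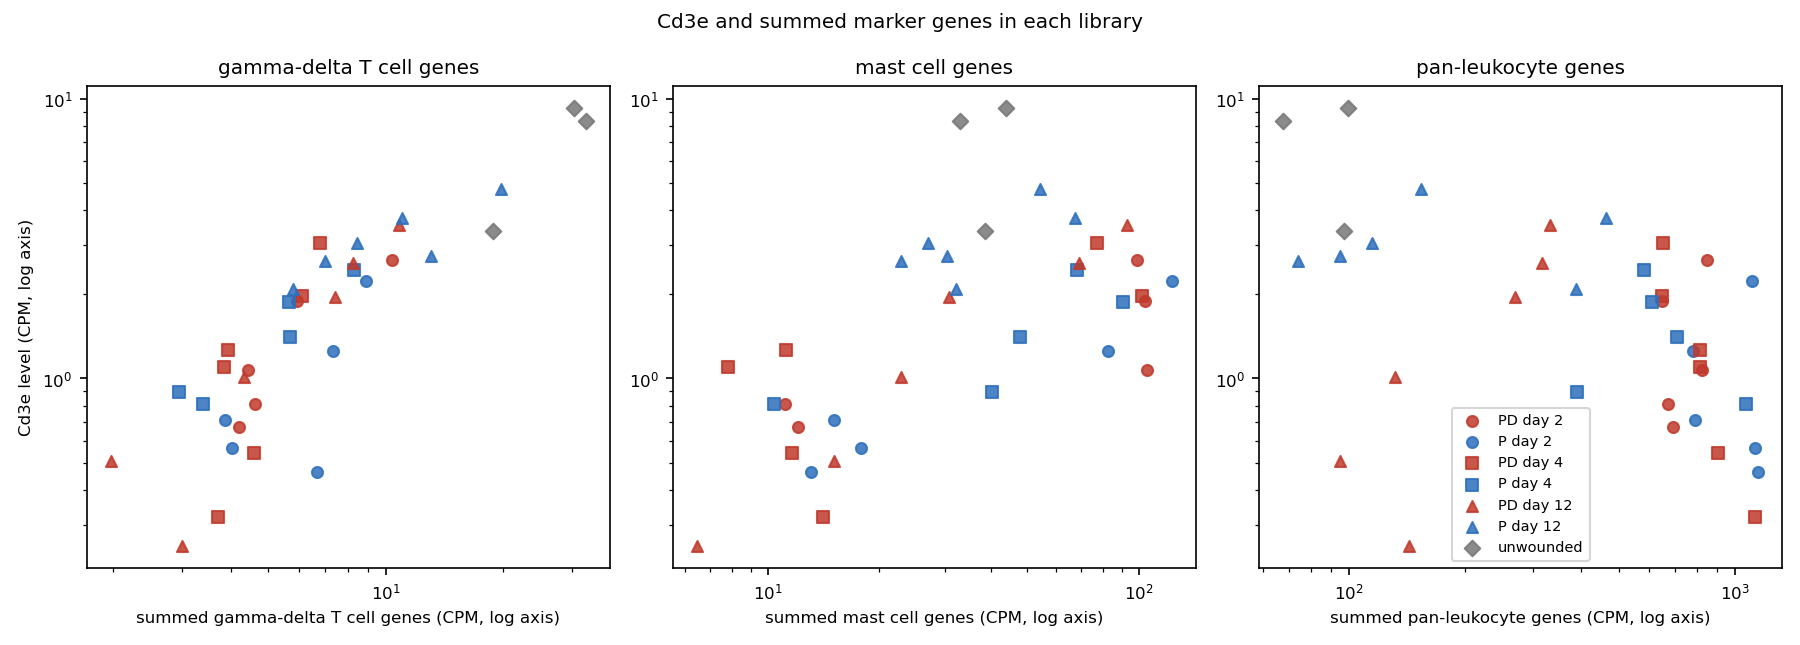
Cd3e level (CPM) in each library against the summed level (CPM) of gamma-delta T cell genes, mast cell genes and pan-leukocyte genes, on log axes, coloured by arm and shaped by day. The gamma-delta sum was 1.97 to 19.8 CPM in wounds, against 18.8 to 32.6 CPM in unwounded skin, where Cd3e was also high (3.37 to 9.27 CPM).

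Across the 36 libraries, the genes whose levels ranked most like Cd3e, among 15418 genes averaging at least 1 CPM, were Trgc1 (Spearman 0.91), Cd7 (0.88), Itgae (0.88), Gm49601 (0.85), Sema5a (0.84) and Ppp1r14a (0.84). Trgc1 is a constant segment of the gamma receptor chain, Cd7 is a T and NK cell surface gene, and Itgae encodes the integrin CD103 of epithelial T cells. For Gzmb they were Ostc (0.82), Tram1 (0.80), Manf (0.80), Lrrc32 (0.80), Rpn2 (0.80) and Ddx60 (0.79), of which Ostc, Tram1, Manf and Rpn2 act in the endoplasmic reticulum. Among the members themselves, Cd3e ranked with Cd3g (0.93), Prf1 (0.79) and Nkg7 (0.64), while Gzmb was at 0.09 with Cd3e, 0.25 with Prf1 and −0.01 with Nkg7. These values share the libraries, their depth and the group differences given above, and are descriptions only.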

How the data were processed

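RNA was measured in 36 mouse skin libraries prepared with TruSeq Stranded mRNA and sequenced on a NovaSeq 6000, from snap-frozen tissue extracted in TRIzol (per the labels' protocols). The authors deposited whole-number read counts per gene without normalization, made with Trimmomatic, HISAT2 2.1.0 on GRCm39, SAMtools 1.9 and HTSeq, per the submitters' processing notes. The strand setting and annotation release are not given in the sources used here, so overlapping genes on opposite strands are less certain. Each library has 1 file, grouped by its title. Of the 55414 genes counted, 1416 had no symbol. No library of a group was the same as another: the lowest chi-square per degree of freedom among 78 pairs was 13.4. Coordinates come from a GENCODE annotation of GRCm39.

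Counts were tested with edgeR 4.0.16 (R 4.3.3): filterByExpr (minimum count 10, minimum total 15), TMM factors, and a robust quasi-likelihood fit of group means over all 36 libraries, so that the groups share 1 estimate of spread. P-values were adjusted by Benjamini-Hochberg over 20657 genes. The procedure was tested on simulated data. Totals of 11.807 to 58.376 M counts limit the precision of genes near 1 CPM, and intervals are 95% intervals of the fitted difference.

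The alternatives, each applied to every comparison it fits, were DESeq2 1.42.0 (as size factors and as a Wald test), no composition factor, limma 3.58.1 voom with sample weights, no filter, a minimum count of 30, only the libraries compared, the replicate number as a block, 2 surrogate variables (sva 3.50.0) and each library left out. Leaving out P day 12 replicates 1 and 2, or replicates 1 and 2 of every wound group, was chosen after seeing the data. The 10 genes and the marker lists were chosen with earlier results of these data known. All 10 are named in every comparison, from each other list at most 5 genes called in most comparisons (ties by mean CPM), and for Cd3e and Gzmb the 6 genes most like them. Which of the list genes are given with values was decided after their values were seen. Some genes that this rule names are not reported here. Symbols for 4 of 10 listed gamma-delta genes were not matched and those genes are not analysed here.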

Additional observations from a re-analysis of the deposited data

Results flagged for a closer look

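Within groups of 5 or 6 libraries, 8 of the 60 combinations of gene and wound group held a library whose distance to its neighbour was a large part of the group's range by Dixon's test. The limits of that test are set for about 1 in 20 when values are spread normally. This was not checked for the CPM of these low-counted genes, so no excess over chance is claimed. Foxp3 accounted for 3 of them: PD day 2 replicate 1 had 1.13 CPM against 0.423 CPM in the next library, PD day 4 replicate 2 had 0.589 CPM against 0.204 CPM, and P day 12 replicate 2 had 2.32 CPM against 0.872 CPM. Among the granzymes, Gzmb in PD day 2 replicate 3 was at 3.28 CPM against 1.22 CPM in the next library, and Gzma in P day 4 replicate 5 was at 1.81 CPM against 0.678 CPM. P day 4 replicate 5 also stood apart for Cd8a, at 0.748 CPM against 0.15 CPM. Cd3g in P day 12 replicate 5 was at 10.5 CPM against 4.5 CPM. Cd5 in PD day 4 replicate 3 was the single low one, at 0.959 CPM against 3.09 CPM in the next library. No cause was tested.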

How the results depend on the processing

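Against unwounded skin, the number of members called stayed within 1.5 times of the count given under every alternative: 4 to 6 in PD and 4 to 6 in P wounds at day 2, 6 to 7 in PD and 5 to 9 in P at day 4, and 5 to 8 in PD and 4 to 9 in P at day 12. With each library left out it was 4 to 5 in PD and 4 to 5 in P at day 2, 6 to 7 in PD and 5 to 7 in P at day 4, and 5 to 7 in PD and 4 to 5 in P at day 12. Between PD and P wounds 0 members were called at each day under all alternatives. For day 4 against day 2 in P wounds (1 member), limma-voom called 2 and the fit without replicates 1 and 2 of every wound group called 0, with 1 to 2 when single libraries were left out. For day 12 against day 4 in P wounds (0 members), 2 were called without a composition factor, with DESeq2 and with 2 surrogate variables, 4 with limma-voom, 1 with only the libraries compared, and 0 to 2 with single libraries left out. For day 4 against day 2 in PD wounds (0 members), DESeq2 and the stricter filter called 1, limma-voom and 2 surrogate variables 2, and single libraries left out 0 to 1. For day 12 against day 4 in PD wounds (2 members), limma-voom and only the libraries compared called 0, no filter, 2 surrogate variables and leaving out replicates 1 and 2 of every wound group called 1, and single libraries left out gave 1 to 3. In the change of the PD minus P difference from day 2 to day 4, limma-voom called 1 member (Gzma). Signs turned for differences that were not called: Foxp3 was −0.48 at P day 4 with limma-voom and −0.03 to 0.592 with single libraries left out (0.35 otherwise), and at PD day 4 it was 0.63 with 2 surrogate variables and −1.033 to 0.019 with single libraries left out (−0.26 otherwise), while Cd8a at PD day 12 was −0.10 with limma-voom (0.37 otherwise). The cause of these shifts was not tested.

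Same-numbered libraries were alike only in part: 1 of 21 pairs of groups (P day 2 with PD day 12) had every same-numbered correlation over 0.1. Between PD and P these ran from −0.253 to 0.463 at day 2, −0.138 to 0.209 at day 4 and −0.105 to 0.535 at day 12. The first surrogate variable was negative in replicates 1 and 2 of every wound group and in some other libraries. In PD day 4 wounds these 2 had −0.111 and −0.105, and the other replicates 0.158 to 0.354. Whether the numbers mark a shared batch was not tested. With the number as a block, 5 members were called in PD and 6 in P wounds at day 2, 7 in PD and 7 in P at day 4, and 6 in PD and 7 in P at day 12 against unwounded skin, 4 in P wounds at day 12 against day 4, and 1 in PD wounds at day 4 against day 2. Over all genes, limma-voom called 12520 at PD day 2 (8133 in edgeR), 13542 at P day 4 (8945), 13739 at P day 12 (9028), 4118 at PD day 4 against day 2 (880), 6200 at P day 4 against day 2 (1746), 10709 at P day 12 against day 4 (4922) and 2826 for the change from day 2 to day 4 (0), where DESeq2 called 78 and the fit without replicates 1 and 2 of every wound group 12. For the change from day 4 to day 12 limma-voom called 1 and DESeq2 89 (0 in edgeR). PD against P at day 4 went to 652 without replicates 1 and 2 of every wound group and to at most 31 without single libraries (0). PD day 4 against day 2 gave 1647 with DESeq2, 527 without a filter, 381 with only those libraries, 2179 with 2 surrogate variables and 430 at the lowest without 1 library. P day 4 against day 2 gave 1138 with only those libraries, 3125 with 2 surrogate variables and 937 at the lowest. Without a composition factor the median log2 change of all genes was 0.33 in PD and 0.37 in P wounds at day 12, against 0.09 and 0.10 with it, and 65.7% of PD day 2 calls were increases, against 53.3%. Depth limits Gzmb in unwounded skin (4 counts) and Cd8a everywhere. Foxp3 did not pass the filter in some fits of only the libraries compared, which give no value.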

Other observations

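Mast cell genes varied widely inside wound groups. The 6 genes of that list summed to 11.1 to 105 CPM in PD and 13.1 to 123 CPM in P wounds at day 2, 7.8 to 102 CPM in PD and 10.4 to 90.8 CPM in P at day 4, and 6.44 to 92.8 CPM in PD and 22.9 to 67.4 CPM in P at day 12, against 33 to 43.8 CPM in unwounded skin. At most 1 of the 6 was called in any comparison with unwounded skin. At days 2 and 4, Cd3e was 1.07 to 3.06 CPM in replicates 1 and 2 of the 4 wound groups, and 0.32 to 1.9 CPM in the other replicates. Mast cell sums were high in replicates 1 and 2, and also in PD day 2 replicate 3 (104 CPM), the library with 1.9 CPM of Cd3e.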
